A study of Mus musculus with 12 samples.

Results

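The genes described here are the 6 that attach ISG15 to other proteins or take it off again, namely Isg15, Uba7, Ube2l6, Herc6, Trim25 and Usp18. They were chosen by name and found by symbol among the 24421 genes of the RNA-seq tables, and all 6 passed the filter on low values in both experiments. The libraries came from bone marrow-derived macrophages (BMMs), the precursors of osteoclasts, grown with M-CSF for 3 days. In the loss of function experiment, WT cells (Mir182+/+ LysMcre(+)) and Mir182ΔM/ΔM cells (Mir182flox/flox LysMcre(+)) were left basal or given RANKL for 5 days. RANKL is the cytokine that drives osteoclast differentiation. By the labels, basal cells had M-CSF for 3 days and RANKL for 0 days, while the study describes 5 days with or without RANKL. Any difference of time in culture cannot be told apart from RANKL. In the gain of function experiment, Control (LysMcre(+)) and Mir182mTg cells (a Cre-activated Mir182 transgene with LysMcre(+)) were basal. All mice were labelled C57BL/6. All 6 conditions therefore carry LysMcre, a Cre expressed from the lysozyme M locus, so that Mir182 is lost or gained in myeloid cells and not in the whole animal. Each condition had 2 replicates, which makes 12 libraries.

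ISG15 is a small ubiquitin-like protein made after type I interferon (IFN). An activating enzyme (E1, UBA7) passes it to a conjugating enzyme (E2, UBE2L6), and ligases (E3) set it on target proteins. HERC6 is the main ISG15 ligase of the mouse, which lacks HERC5. TRIM25 is a further ISG15 ligase, known mostly as the ubiquitin ligase of the RNA sensor RIG-I. USP18 is the protease that removes ISG15, and it also binds the receptor chain IFNAR2 and holds IFN signaling down. In osteoclast precursors, IFN-β made after RANKL is known as a brake on differentiation. The data are transcript levels, and conjugates of ISG15 were not measured.

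The genes lie on 5 chromosomes of mm10 (GRCm38, GENCODE vM21 positions, counted from 1). Isg15 (ENSMUSG00000035692.6) is at chr4:156199424-156200818 on the minus strand and is the shortest, with a span of 1395 bases. The other 5 are on the plus strand, with Uba7 at chr9:107975505-107984060, Ube2l6 at chr2:84798828-84810335, Herc6 at chr6:57581000-57664632, Trim25 at chr11:88999376-89020293 and Usp18 at chr6:121245906-121270917. Herc6 overlaps the processed transcript Gm45193 on its own strand and the pseudogene Gm19244 on the opposite one, Usp18 overlaps the lincRNA Gm44148 on the opposite strand, and Uba7 overlaps the gene model Gm20661 on its own strand. Reads shared with the neighbours on the same strand cannot be told apart from reads of Herc6 and Uba7. The study names a TruSeq RNA kit and no step that marks strand. The same may therefore hold for the neighbours of Herc6 and Usp18 on the opposite strand.

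Promoter sequences are shown because type I IFN acts through a short element, the ISRE, in front of the genes it induces. RefSeq windows (GRCm38.p6, 250 bases before to 50 after the annotated start) were found for 5 of the 6 genes, all but Usp18. The ISRE core GAAANNGAA was searched on both strands, and 8.56% of the 32851 windows held it. Of the 5 genes, 2 held it, Isg15 and Trim25. Isg15 had 3 overlapping matches in a row, the first beginning 78 bases before the start, while 0.624% of all windows held more than a single match. The match of Trim25 was on the opposite strand and ended at the last base before the RefSeq start, which lies 27 bases inside the gene as GENCODE draws it. None of the 5 windows held the GAS core TTCNNNGAA, a further IFN-responsive element, which was in 8.30% of all windows. A match says only that the letters are present, and a window without one says nothing about IFN acting elsewhere. The 150 bases before the start are printed below 5′ to 3′ on the strand of the gene, with matches to the ISRE core in capitals, for Isg15 (chr4:156200819-156200968, minus strand), Trim25 (chr11:88999253-88999402, plus strand) and, as a gene without a match that was higher after RANKL in both genotypes, Ube2l6 (chr2:84798678-84798827, plus strand).
Isg15: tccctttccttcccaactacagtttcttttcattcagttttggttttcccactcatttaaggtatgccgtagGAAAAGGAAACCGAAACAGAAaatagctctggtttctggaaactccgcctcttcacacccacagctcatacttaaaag
Trim25: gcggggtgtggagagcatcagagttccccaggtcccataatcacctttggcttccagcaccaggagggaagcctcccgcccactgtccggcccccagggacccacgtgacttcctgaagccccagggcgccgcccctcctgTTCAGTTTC
Ube2l6: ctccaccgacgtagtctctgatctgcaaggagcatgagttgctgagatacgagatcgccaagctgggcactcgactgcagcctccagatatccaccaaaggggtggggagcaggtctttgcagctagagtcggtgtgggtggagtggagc

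The deleted or added microRNA is shown with its seed (bases 2 to 8) in capitals, since the seed is what pairs with messenger RNAs. The site it pairs with reads TTGCCAA, or TGCCAAA where bases 2 to 7 pair and an A stands opposite base 1.
mmu-miR-182-5p: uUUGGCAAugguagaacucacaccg
Of the 6 genes, 1 held such a site in an annotated 3′ UTR, against 21.4% of the 19549 listed genes with a 3′ UTR. The site was in Trim25, at base 1481 of a 3′ UTR of 3572 bases, and reads cctgtcgtgaTGCCAAAtccagaagat with the match in capitals. No such site was found in the 3′ UTRs of Isg15, Uba7, Ube2l6, Herc6 and Usp18, which are at most 160, 2608, 1020, 1718 and 400 bases long.

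Reads counted on genes ran from 24951280 to 33050619 per library, so that 3 reads, the floor used here, were 0.0908 to 0.120 CPM (reads of a gene scaled to the same total in every library). The 6 genes were far above this, from 185 reads upwards. The row of the Mir182 precursor held 79 and 123 reads in Mir182mTg and at most 1 in each other library, WT included, so that it checks the transgene and not the deletion. The WT RANKL libraries stood apart from the rest of the loss of function experiment in 2 genes. Lyz2, the gene at the LysMcre locus, was at 4117 and 4288 CPM in WT RANKL, against 39.8 and 44.0 in WT basal and 22.5 to 34.6 in the 4 Mir182ΔM/ΔM libraries. Ifi202b, an IFN-inducible gene whose level is known to differ between mouse strains, was at 1.12 and 0.972 CPM in WT RANKL against 82.1 to 152 in those 6 libraries. In Control and Mir182mTg cells Lyz2 was at 5783 to 7062 CPM and Ifi202b had at most 3 reads. Any difference of origin of the WT RANKL cells cannot be told apart from genotype and RANKL in the 3 comparisons that use them (Mir182ΔM/ΔM against WT after RANKL, RANKL against basal in WT, and the difference of the RANKL responses). The comparisons of the basal genotypes and of RANKL against basal in Mir182ΔM/ΔM do not use them. All 8 macrophage markers were present in every library, with sums of 5807 to 8783 CPM, and 6 of the 9 T, NK and B cell markers, Cd3e and Ncr1 among them, stayed at or under 3 reads in every library. Sums of conventional dendritic cell markers stayed between 1.09 and 3.92 CPM and those of stromal markers between 7.84 and 48.9 CPM. Of the erythroid and megakaryocyte markers, the globin genes and Alas2 were at or under 3 reads throughout. Pf4 and Ppbp of the same list were expressed, and the sums of the list ran from 34.4 to 345 CPM.

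**Figure D1:**
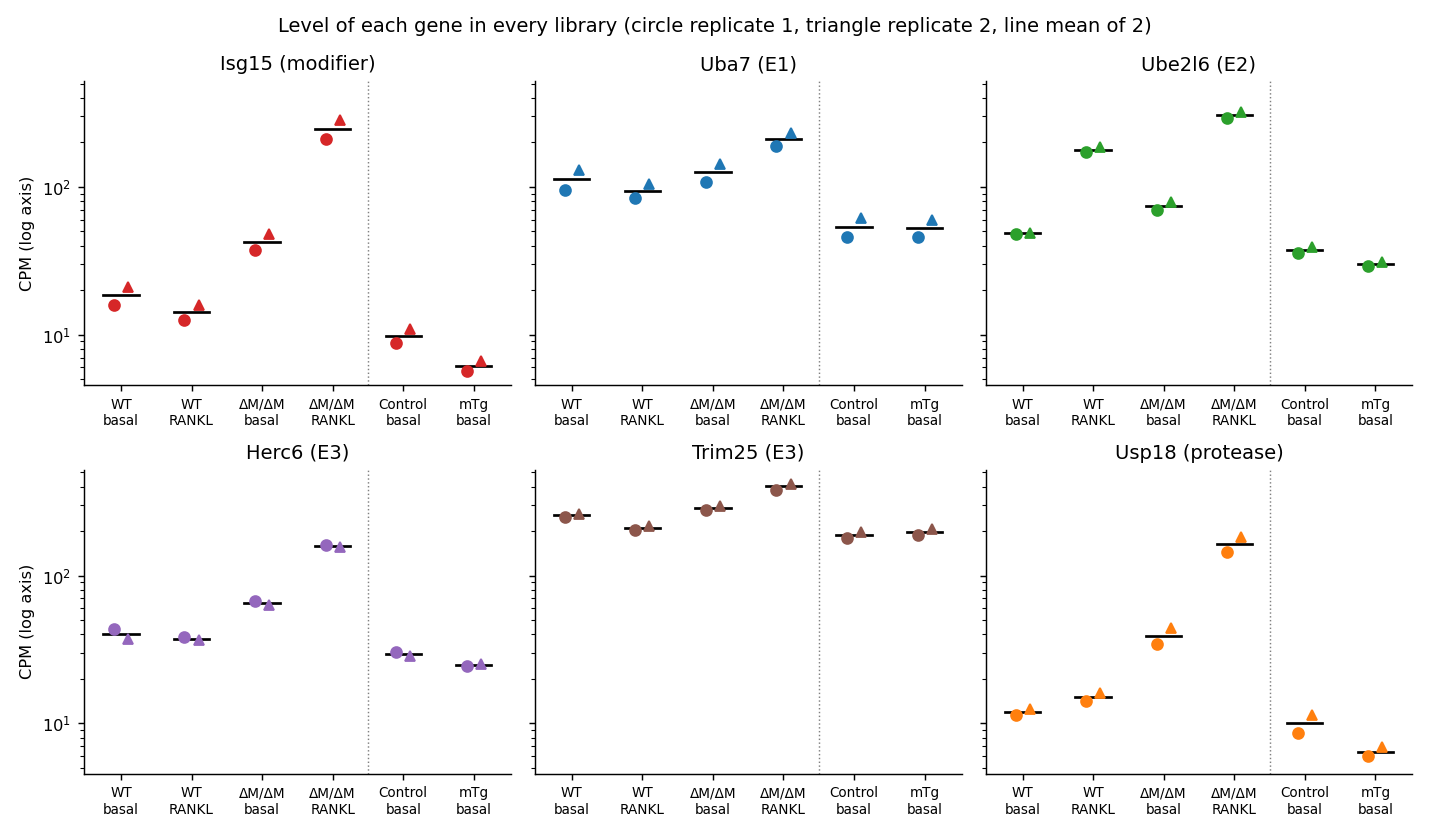
CPM of the 6 genes (log axis) in the 12 libraries, with circles for replicate 1, triangles for replicate 2 and a line at the mean of the 2. Every gene is highest in Mir182ΔM/ΔM RANKL, where Isg15 reached 212 and 282 CPM and Usp18 144 and 181 CPM. The dotted line separates the experiments, which were not tested against each other.

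Isg15, the modifier itself, had the widest range of the 6 genes as a ratio of its highest to its lowest level. It was at 16.0 and 21.2 CPM in WT basal, 12.6 and 15.8 in WT RANKL, 37.3 and 47.9 in Mir182ΔM/ΔM basal and 212 and 282 in Mir182ΔM/ΔM RANKL. In the other experiment it was at 8.81 and 10.9 CPM in Control and 5.66 and 6.62 in Mir182mTg. The 6 conditions thus fell into an order, Mir182ΔM/ΔM RANKL, Mir182ΔM/ΔM basal, WT basal, WT RANKL, Control and Mir182mTg, in which no neighbours overlapped, although the gap between WT basal and WT RANKL was only from 16.0 to 15.8 CPM. Separation of replicates was common over all genes tested. Between the genotypes 23.4% were higher in Mir182ΔM/ΔM without overlap at baseline and 23% after RANKL. From basal to RANKL, 41.7% were higher without overlap in Mir182ΔM/ΔM, and 51% higher and 28.6% lower in WT. Mir182mTg lay under Control for 14.1%. These shares stand beside the orders of all 6 genes. Control and Mir182mTg belong to the other experiment and were not tested against WT, so their place below WT is a description.

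Uba7, the E1 enzyme, moved less. It was at 94.6 and 131 CPM in WT basal, 84.0 and 105 in WT RANKL, 108 and 143 in Mir182ΔM/ΔM basal and 188 and 233 in Mir182ΔM/ΔM RANKL. It was at 46.0 and 61.3 CPM in Control and 45.6 and 59.7 in Mir182mTg. Mir182ΔM/ΔM RANKL stood clear of the other loss of function conditions. WT basal overlapped both Mir182ΔM/ΔM basal and WT RANKL, and Control overlapped Mir182mTg. Replicate 2 was above replicate 1 in all 6 conditions, as it also was for Isg15, Ube2l6, Trim25 and Usp18, but not for Herc6.

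Ube2l6, the E2 enzyme, followed RANKL as well as genotype. It was at 48.2 and 49.1 CPM in WT basal, 171 and 186 in WT RANKL, 69.5 and 79.2 in Mir182ΔM/ΔM basal and 292 and 324 in Mir182ΔM/ΔM RANKL. It was at 35.5 and 39.3 CPM in Control and 29.0 and 31.2 in Mir182mTg. It was the only one of the 6 for which WT RANKL lay above Mir182ΔM/ΔM basal, and no neighbouring conditions overlapped.

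Herc6, the main ISG15 ligase of the mouse, was at 43.5 and 37.4 CPM in WT basal, 38.5 and 36.4 in WT RANKL, 67.8 and 63.3 in Mir182ΔM/ΔM basal and 162 and 156 in Mir182ΔM/ΔM RANKL. It was at 30.3 and 28.7 CPM in Control and 24.4 and 25.2 in Mir182mTg. WT basal and WT RANKL overlapped, while the other neighbours in the order did not.

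Trim25, the ligase shared with the RIG-I pathway, had the smallest ratio between its highest and lowest condition. It was at 251 and 262 CPM in WT basal, 204 and 216 in WT RANKL, 277 and 298 in Mir182ΔM/ΔM basal and 382 and 420 in Mir182ΔM/ΔM RANKL. It was at 180 and 196 CPM in Control and 188 and 207 in Mir182mTg. Mir182mTg overlapped both Control and WT RANKL, while the other neighbours in the order did not.

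Usp18, the protease, was at 11.4 and 12.5 CPM in WT basal, 14.1 and 16.2 in WT RANKL, 34.4 and 44.0 in Mir182ΔM/ΔM basal and 144 and 181 in Mir182ΔM/ΔM RANKL. It was at 8.65 and 11.3 CPM in Control and 5.99 and 6.87 in Mir182mTg. No neighbouring conditions overlapped, and unlike Isg15 it was slightly higher in WT RANKL than in WT basal.

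The first comparison was between the genotypes after RANKL. It uses the WT RANKL libraries, so any difference of their origin cannot be told apart from genotype here. All 6 genes were higher in Mir182ΔM/ΔM than in WT cells, against 14.3% of all 11691 genes tested. The changes were far from even, largest for the modifier and the protease and smallest for the E2 enzyme. Isg15 rose by 4.02 ± 0.205 on the log2 scale (SE, from limma on log2(CPM + 1), adjusted p = 1.09e-05), the 18th highest value of all genes. The fold in CPM was 16.9 in replicate 1 and 17.9 in replicate 2. Usp18 was next at 3.34 ± 0.154 (limma, adjusted p = 7.93e-06), followed by Herc6 at 2.06 ± 0.0891 (limma, adjusted p = 6.20e-06). Uba7 rose by 1.15 ± 0.208 (limma, adjusted p = 0.00384), a fold in CPM of 2.24 in replicate 1 and 2.22 in replicate 2. Trim25 rose by 0.93 ± 0.0737 (limma, adjusted p = 7.90e-05) and Ube2l6 by 0.78 ± 0.0892 (limma, adjusted p = 4.33e-04). CPM of all genes together leaned the other way, with a median log2 fold change of -0.145, and with TMM factors, which bring that median to -0.00304, the rises of the 6 genes ran from 0.94 to 4.17. TMM also changed the balance of all calls, from 1668 higher and 3607 lower to 2438 higher and 2347 lower.

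The same libraries differed in how far they had become osteoclasts. All 8 osteoclast markers, such as Acp5 and Ctsk, were lower in Mir182ΔM/ΔM than in WT after RANKL, against 30.9% of all genes. Their sums were 3161 and 3192 CPM against 10575 and 10788 in WT. Fewer cells of a type and less RNA per cell cannot be told apart in bulk RNA, and the part of this shift in the levels of the 6 genes was not tested. Markers of plasmacytoid dendritic cells, which are strong IFN producers, summed to 442 and 613 CPM in Mir182ΔM/ΔM RANKL against 162 and 183 in WT RANKL. Of the 7 markers, Bst2, itself an IFN response gene, was at 353 and 530 CPM against a mean of 66.7 in WT RANKL, Tcf4 at 73.5 and 78.5 against 72.0 and 86.9, and Spib at 8.81 and 9.76 against 24.3 and 26.3. The other 4, Siglech, Ccr9, Klk1 and Cox6a2, were under 1 CPM in both conditions. Neutrophil markers summed to 7.19 and 7.36 CPM there and to 21.9 and 22.2 CPM in WT RANKL.

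**Figure D2:**
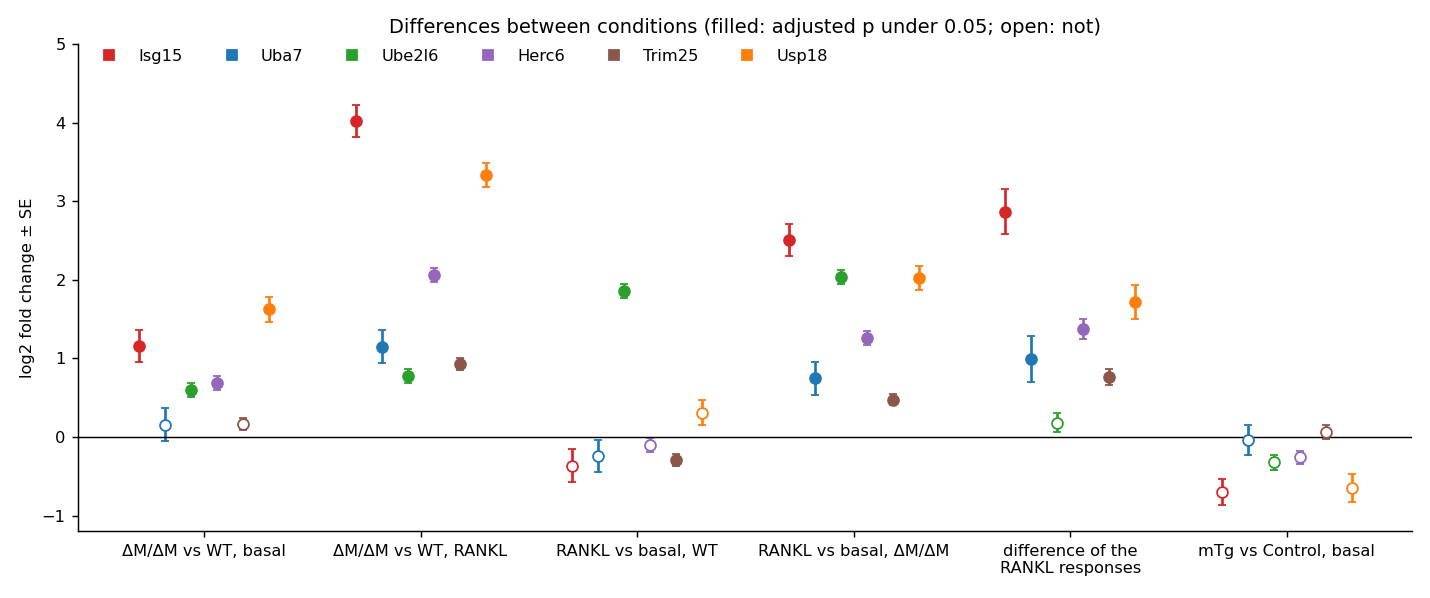
Log2 fold change ± SE of the 6 genes in each comparison, filled where the adjusted p was under 0.05 and open where it was not (limma for the first 5 comparisons, edgeR for the last). All 6 points are filled and above 0 for Mir182ΔM/ΔM against WT after RANKL, led by Isg15 at 4.02, and all 6 are open for Mir182mTg against Control.

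Before any RANKL, the genotypes already differed in 4 of the 6 genes, all higher in Mir182ΔM/ΔM BMMs, against 2.71% of all genes. Usp18 had the largest difference, 1.62 ± 0.154 on the log2 scale (limma, adjusted p = 0.00286), the 14th highest of all genes tested. Isg15 followed with 1.16 ± 0.205 (limma, adjusted p = 0.0291), and its fold in CPM was 2.33 in replicate 1 and 2.27 in replicate 2. Herc6 rose by 0.69 ± 0.0891 (limma, adjusted p = 0.00946) and Ube2l6 by 0.60 ± 0.0892 (limma, adjusted p = 0.0166). The differences of Uba7 (0.16 ± 0.208) and Trim25 (0.16 ± 0.0737) did not pass the test, with 95% intervals of -0.33 to 0.65 and of -0.01 to 0.34. With the replicate number as a block, Uba7 (limma, adjusted p = 0.00379) and Trim25 (limma, adjusted p = 2.57e-04) were called higher as well, as were 18.6% of all genes. The count is sensitive to the basal libraries. It was 2 without replicate 1 of either WT basal or Mir182ΔM/ΔM basal, 1 without replicate 2 of either, and 1 in a fit of those 4 libraries alone, in which Usp18 was the gene left. Without both WT RANKL libraries, a fit added after seeing the data, it was still 4.

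In WT cells, 2 of the 6 genes passed the test of RANKL against basal. The E2 enzyme Ube2l6 was higher after RANKL, so 1 of 6 against 40.6% of all genes, and the ligase Trim25 was lower, so 1 of 6 against 22% of all genes. Ube2l6 rose by 1.85 ± 0.0892 (limma, adjusted p = 3.00e-06), with a fold in CPM of 3.55 in replicate 1 and 3.78 in replicate 2. Trim25 fell, at -0.29 ± 0.0737 (limma, adjusted p = 0.0112), and this call was lost without WT RANKL replicate 1 or WT basal replicate 2, when its values were -0.25 and -0.26. The values of the other 4 genes did not pass the test and were -0.36 ± 0.205 for Isg15, -0.24 ± 0.208 for Uba7, -0.10 ± 0.0891 for Herc6 and 0.31 ± 0.154 for Usp18. Their 95% intervals reached from -0.85 to 0.12 for Isg15, from -0.73 to 0.25 for Uba7, from -0.31 to 0.11 for Herc6 and from -0.05 to 0.68 for Usp18. With the replicate block, Isg15 (limma, adjusted p = 1.61e-06), Uba7 (1.04e-05) and Herc6 (0.0429) were called lower too and Usp18 higher (1.04e-04), which makes 2 genes higher, against 52.8% of all genes, and 4 lower, against 29%. The median of all genes was 0.187 on this scale and -0.00581 with TMM factors, and relative to it Usp18 was at 0.12 ± 0.156 while Herc6 fell by 0.31 (limma, adjusted p = 0.0182). The calls over all genes shifted with it, from 4741 higher and 2571 lower to 3355 higher and 3571 lower. All 8 osteoclast markers were higher after RANKL in WT, 7 of 8 macrophage markers and 7 of 7 neutrophil markers were lower, and their part in these values was not tested.

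In Mir182ΔM/ΔM cells all 6 genes rose with RANKL, against 30.4% of all genes. This comparison does not use the WT libraries, and the count was also 6 with both WT RANKL libraries left out (added after seeing the data) and with the 4 Mir182ΔM/ΔM libraries alone. Isg15 rose by 2.51 ± 0.205 (limma, adjusted p = 4.93e-05), and its fold in CPM was 5.69 in replicate 1 and 5.89 in replicate 2. Ube2l6 rose by 2.04 ± 0.0892 (limma, adjusted p = 2.65e-06) and Usp18 by 2.03 ± 0.154 (limma, adjusted p = 3.47e-05). Herc6 rose by 1.27 ± 0.0891, Uba7 by 0.75 ± 0.208 and Trim25 by 0.48 ± 0.0737, with adjusted p of 2.37e-05, 0.0183 and 0.00123 in limma. Uba7 lost its call without Mir182ΔM/ΔM basal replicate 1 or Mir182ΔM/ΔM RANKL replicate 2, which left adjusted p = 0.104 and 0.105 in limma. In the same comparison 7 of 8 osteoclast markers were higher (summed level from 134 and 166 to 3161 and 3192 CPM). Lower were 4 of 8 macrophage markers (from 7739 and 7767 to 6116 and 6224 CPM) and 7 of 7 neutrophil markers (from 109 and 115 to 7.19 and 7.36 CPM), against 26.4% of all genes. The part of these markers in the rise of the 6 genes was not tested.

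**Figure D3:**
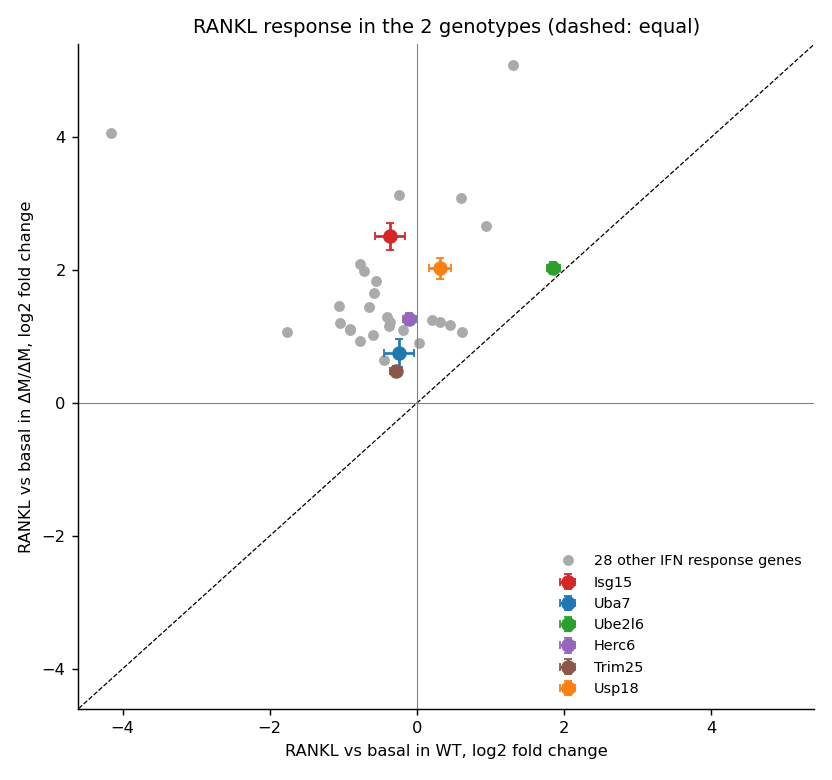
Log2 fold change from basal to RANKL in WT (horizontal) and in Mir182ΔM/ΔM cells (vertical) for the 6 genes, with SE bars, and for 28 other IFN response genes in grey. Ube2l6 lies near the dashed line of equal responses at 1.85 and 2.04, while the other 5 lie above it with values of 0.48 to 2.51 in Mir182ΔM/ΔM cells.

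The difference between the RANKL responses was then tested as the interaction of genotype and RANKL. It was called higher for 5 of the 6 genes, against 7.44% of all genes. Isg15 had the largest difference, 2.87 ± 0.290 on the log2 scale (limma, adjusted p = 5.44e-04). Usp18 differed by 1.71 ± 0.218 (limma, adjusted p = 0.00157), Herc6 by 1.37 ± 0.126 (limma, adjusted p = 3.77e-04) and Trim25 by 0.77 ± 0.104 (limma, adjusted p = 0.00210). Uba7 differed by 0.99 ± 0.295 (limma, adjusted p = 0.0489), at the edge of the threshold, and lost its call in 6 of the 8 fits that left out a library, all but those without WT basal replicate 1 or Mir182ΔM/ΔM basal replicate 2, with values of 0.76 to 1.15 in those 6. It was also lost in 3 of 9 other settings (without the filter, with 1 CPM required in every library, and with a pseudocount of 0.1). For Ube2l6, which was higher after RANKL in both genotypes, the difference was 0.18 ± 0.126 (limma, adjusted p = 0.343) with a 95% interval of -0.11 to 0.48. With the replicate block it was called (limma, adjusted p = 0.00746), so that all 6 genes were, against 16.1% of all genes. The median of all genes was -0.151, and 0.00547 with TMM factors, under which 1237 genes were called higher and 1265 lower in place of 870 and 2005. Ube2l6 was then at 0.35 ± 0.127 (limma, adjusted p = 0.101).

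Because the genes rose unevenly, the make-up of the pathway changed. Levels were compared between genes per length, as RPKM from the gene lengths in the authors' files. Their summed level was 146 and 166 RPKM in the 2 WT basal libraries, 218 and 243 in WT RANKL, 216 and 256 in Mir182ΔM/ΔM basal and 731 and 888 in Mir182ΔM/ΔM RANKL. On average over the 2 replicates, Isg15 made up 15.7% of the sum in WT basal, 8.11% in WT RANKL, 23.8% in Mir182ΔM/ΔM basal and 40.2% in Mir182ΔM/ΔM RANKL. In WT RANKL the E2 enzyme led instead, with Ube2l6 at 55.8% of the sum. Trim25 had the largest share in WT basal, 29.7%, and fell to 8.95% in Mir182ΔM/ΔM RANKL. In Control the sums were 94.8 and 109 RPKM, of which Isg15 was 12.8% and Trim25 33.2%. In Mir182mTg they were 84.7 and 96.0 RPKM, of which Isg15 was 8.98% and Trim25 39.4%. These shares are descriptions without a test.

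**Figure D4:**
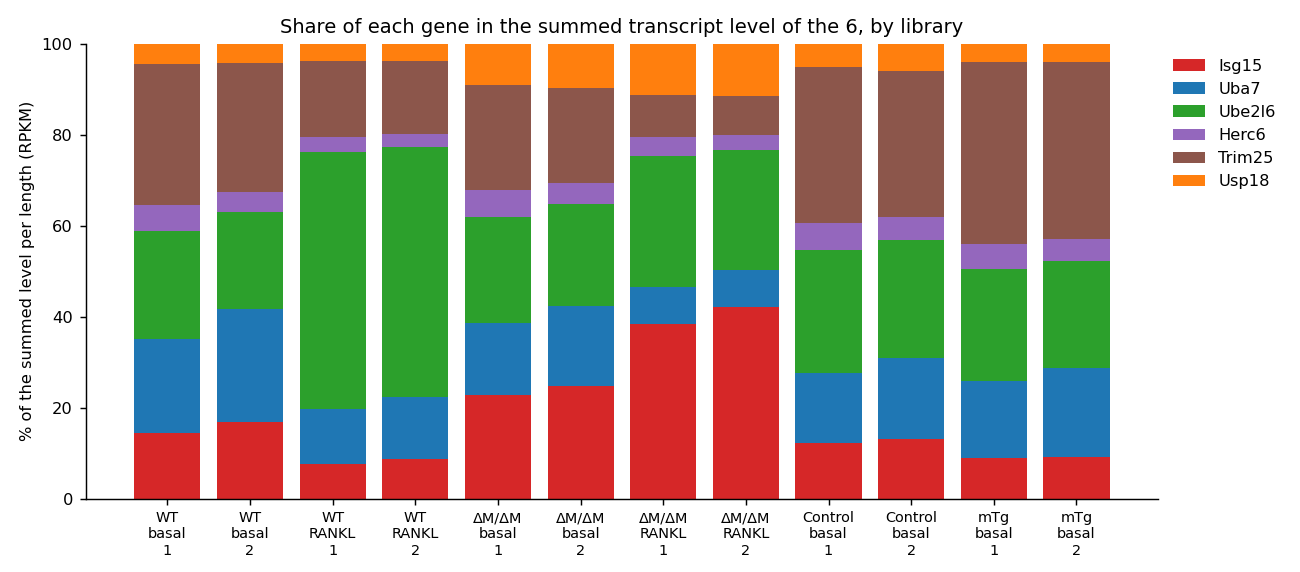
Share of each gene (%) in the summed level per length (RPKM) of the 6 genes in each of the 12 libraries, labelled by condition and replicate. Isg15 takes 38.4 and 42.1% in the 2 Mir182ΔM/ΔM RANKL libraries, and Ube2l6 takes 56.5 and 55.1% in WT RANKL.

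The ratio of the modifier to its protease varied much less than either gene. Isg15 was present at 3.28 and 3.95 RPKM per RPKM of Usp18 in WT basal, 2.09 and 2.29 in WT RANKL, 2.53 and 2.55 in Mir182ΔM/ΔM basal and 3.44 and 3.65 in Mir182ΔM/ΔM RANKL. In Control it was 2.39 and 2.26, and in Mir182mTg 2.21 and 2.26. All 12 ratios thus lay between 2.09 and 3.95, while Isg15 itself ran from 7.48 to 374 RPKM. The ratio of Isg15 to its E1 enzyme moved more, from 0.707 and 0.678 in WT basal to 4.72 and 5.07 in Mir182ΔM/ΔM RANKL. The ratio to the E2 enzyme was lowest in WT RANKL, at 0.135 and 0.156, and highest in Mir182ΔM/ΔM RANKL, at 1.33 and 1.60.

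**Figure D5:**
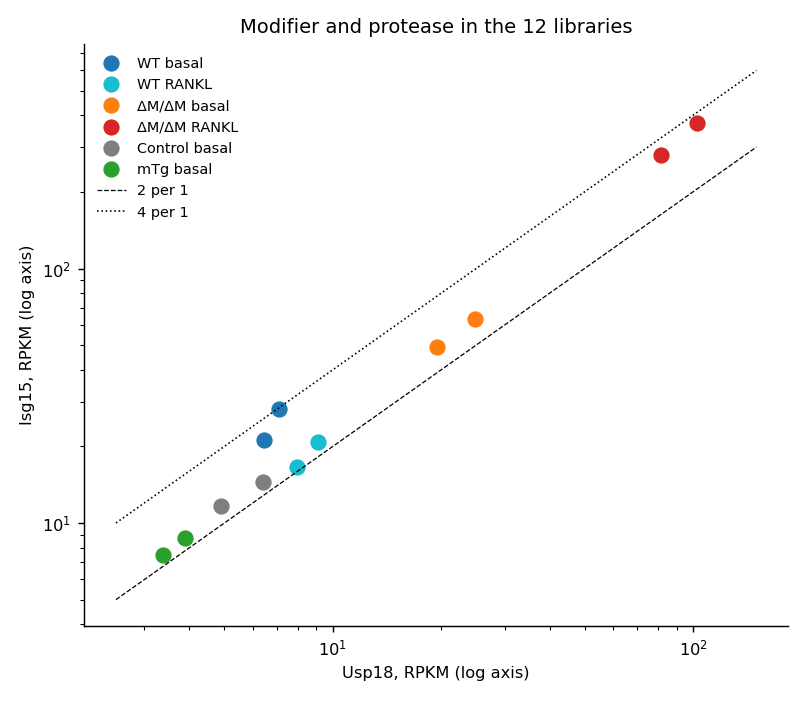
Isg15 against Usp18 in RPKM (log axes) in the 12 libraries, coloured by condition. The points run along the lines of 2 and 4 Isg15 per Usp18, and the 2 Mir182ΔM/ΔM RANKL libraries are at the top with Isg15 at 280 and 374 RPKM.

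The genes whose log2(CPM + 1) was most like that of Isg15 across the 12 libraries were then listed. Of 10289 genes with at least 5 CPM in 2 or more libraries, the 8 with the highest Pearson correlation were Irf7 (r = 0.994), Parp12 (0.993), Ogfr (0.993), Rnf114 (0.991), Ifit1bl1 (0.990), Dhx58 (0.990), Ifit3b (0.990) and Usp18 (0.990). Herc6 was the 11th (0.987), Trim25 the 42nd (0.969), Uba7 the 112th (0.919) and Ube2l6 the 264th (0.788). Among the 8 loss of function libraries alone Usp18 was at place 34 (r = 0.984) and Ube2l6 at place 1183 (r = 0.617), by rank correlation over the 12 Usp18 was at place 52, and 3 of the 8 most alike genes stayed among the first 8 either way. The libraries share conditions, so these values describe the likeness and are given without a test.

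The gain of function experiment asked what more miR-182 does at baseline. In Mir182mTg BMMs none of the 6 genes passed the test against Control (edgeR, 0 of 6), although 4 had an unadjusted p under 0.05, as did 7.14% of all genes, and DESeq2 and limma also called 0. Over all genes edgeR called 0.157% lower. The estimates of 4 genes were below 0, at -0.69 ± 0.165 for Isg15 (edgeR, adjusted p = 0.344), -0.64 ± 0.177 for Usp18 (edgeR, adjusted p = 0.442), -0.32 ± 0.0981 for Ube2l6 (edgeR, adjusted p = 0.515) and -0.26 ± 0.0858 for Herc6 (edgeR, adjusted p = 0.562). In these 4 genes both Mir182mTg libraries lay under both Control libraries, as they did for 14.1% of all genes tested. For Isg15 the ratio of Mir182mTg to Control was 0.642 in replicate 1 and 0.606 in replicate 2, and for Usp18 it was 0.692 and 0.606. Uba7 was at -0.04 ± 0.191 with a 95% interval of -0.52 to 0.44, and Trim25, the gene with a miR-182 site, was at 0.06 ± 0.0862 with an interval of -0.16 to 0.28. With the replicate block the same 4 genes were called lower, with adjusted p of 2.27e-04 for Isg15, 5.14e-04 for Usp18, 5.70e-04 for Ube2l6 and 0.00600 for Herc6 in edgeR, as were 8.15% of all genes. Neutrophil markers summed to 107 and 117 CPM in Mir182mTg against 49.5 and 50.7 in Control, and their part in these values was not tested.

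Relatives of the enzymes that serve ubiquitin and other modifiers were read beside the 6 genes. At baseline limma called 0 of 9 other E1 enzymes, 0 of 31 other E2 enzymes, 0 of 5 other ligases (Herc1 to Herc4 and Arih1) and 0 of 5 other proteases with reported ISG15 activity between the genotypes. Unadjusted p under 0.05 was found for 1, 4, 1 and 1 of them and for 16.2% of all genes, and edgeR and DESeq2 called 0 in each list. With the replicate block, 2, 3, 0 and 2 of them were called higher (18.6% of all genes) and 0, 3, 2 and 0 lower (12.7% of all genes). After RANKL, 3 of the 9 other E1 enzymes were higher and 2 lower in Mir182ΔM/ΔM, against 14.3% and 30.9% of all genes, with a median log2 fold change of 0.01 against -0.145 for all genes. Sae1, which serves SUMO, was at 0.42 (limma, adjusted p = 0.0274). Of the 31 other E2 enzymes 4 were higher and 8 lower (median -0.11), shares near those of all genes, and edgeR and DESeq2 called 8 of them in place of 12. Ube2e2 was the highest at 1.27 ± 0.136 (limma, adjusted p = 3.20e-04) and Ube2h the lowest at -0.66 ± 0.0752 (limma, adjusted p = 4.34e-04). Ube2l3, the closest relative of Ube2l6 and an E2 enzyme of ubiquitin, stayed at means of 177 to 229 CPM in the 6 conditions, and its difference of 0.10 after RANKL did not pass the test (limma, adjusted p = 0.444; 0.0130 with the replicate block). Of the other ligases Herc3 was higher by 0.33 ± 0.0691 (limma, adjusted p = 0.00693), and 3 were lower, Herc1 at -0.39, Arih1 at -0.35 and Herc4 at -0.33 (limma, adjusted p = 0.00690, 0.0184 and 0.0177), but edgeR and DESeq2 each called 1 of the 5 ligases. Of the other proteases Usp2 was higher by 0.56 ± 0.101 (limma, adjusted p = 0.00383) and Usp21 lower, at -0.30 ± 0.0969 (limma, adjusted p = 0.0397). With the replicate block these calls after RANKL became 4 higher and 4 lower E1 enzymes, 7 and 15 E2 enzymes, 1 and 4 ligases and 1 and 2 proteases, against 23.4% higher and 49.7% lower of all genes.

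The genes that carry the IFN signal to the ISRE were also followed. Ifnb1, which encodes IFN-β, had 3 and 5 reads in Mir182ΔM/ΔM RANKL, 1 and 2 in Mir182ΔM/ΔM basal, 0 in all 4 WT libraries and at most 1 in the gain of function libraries. These counts are too low for a fold. Of the 9 genes of the list that were tested, 6 were higher in Mir182ΔM/ΔM after RANKL, against 14.3% of all genes. Irf3 and Jak1 were lower, so 2 of 9 against 30.9% of all genes. The largest rise was that of Irf7, the IFN-induced activator of IFN genes, at 4.74 ± 0.0617 (limma, adjusted p = 7.99e-08). Stat2 and Irf9, which belong to the factor that binds the ISRE, were higher by 2.32 ± 0.0563 and 0.80 ± 0.0695 (limma, adjusted p = 6.42e-07 and 1.21e-04). The receptor chains changed little, with Ifnar1 at 0.23 ± 0.0582 and Ifnar2, the partner of USP18, at 0.34 ± 0.0822 (limma, adjusted p = 0.0156 and 0.0128). At baseline Stat2 (0.68) was higher in Mir182ΔM/ΔM (limma, adjusted p = 0.00175), whereas Irf9 (0.30), Ifnar1 (-0.11) and Ifnar2 (-0.14) did not pass the test and were called with the replicate block (limma, adjusted p = 2.43e-05, 0.0108 and 0.00443). In WT cells Stat2 (-1.31) and Ifnar2 (-0.61) were lower after RANKL, while in Mir182ΔM/ΔM cells Stat2 rose by 0.33 (limma, adjusted p = 1.90e-06, 5.18e-04 and 0.00197).

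Targets and partners of ISG15 and TRIM25 were also followed. Of 9 such genes 8 were higher in Mir182ΔM/ΔM after RANKL, against 14.3% of all genes, with a median log2 fold change of 1.55. Irf3 was lower at -0.63, so 1 of 9 against 30.9% of all genes. At baseline 5 were higher, against 2.71% of all genes. Mx1, an antiviral GTPase, rose by 3.71 ± 0.119 and Ddx58, which encodes RIG-I, by 1.90 ± 0.112 after RANKL (limma, adjusted p = 1.71e-06 and 2.00e-05). Of 28 other type I IFN response genes, 28 were higher after RANKL (median 3.53), against 14.3% of all genes. At baseline 23 were higher (median 0.99), against 2.71% of all genes. Lower at baseline was 1, against 1.1% of all genes, Ifi44 at -2.33 ± 0.0915 (limma, adjusted p = 5.34e-05). With RANKL in WT cells 4 of the 28 were higher, against 40.6% of all genes, and 18 lower, against 22% (median -0.43). In Mir182ΔM/ΔM cells RANKL raised 28 (median 1.24), against 30.4% of all genes. The medians of all genes were 0.187 in WT and 0.0507 in Mir182ΔM/ΔM. Of these 28 genes, 1 was lower in Mir182mTg, against 0.157% of all genes, the nucleic acid sensor Zbp1 at -1.35 ± 0.125 (edgeR, adjusted p = 0.0451). An unadjusted p under 0.05 was found for 13 of them in Mir182mTg (list median -0.30), and for 7.14% of all genes. With the replicate block 20 of the 28 were called lower there, against 8.15% of all genes. Isg15, Ube2l6, Herc6, Trim25, Usp18 and many of the 28 belong to a set of IFN response genes that the study picked on these same libraries, so their counts are no independent evidence of a direction.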

How the data were processed

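Reads were aligned to mm10 with TopHat (replicate 1) or HISAT2 (replicate 2), per the labels and the study's methods, and replicate 1 is labelled polyA RNA while replicate 2 is labelled total RNA. The study's methods describe poly-A purification and name no difference between the replicates. Rn45s, a ribosomal RNA gene, was at 742 to 1176 CPM in replicate 1 and at 9778 to 21273 CPM in replicate 2. For the loss of function libraries the authors deposited CPM, and 100% of these values were whole reads within 0.01 of a read. For the gain of function libraries the authors deposited the count of reads per gene, here also scaled to CPM. For replicate 1 the deposited files also hold RPKM, used only for gene lengths. The 11691 genes that reached 1 CPM in 2 or more of the 8 loss of function libraries were fitted on log2(CPM + 1) in limma 3.58.1, with all 4 conditions in 1 model and a mean trend in the moderated variance. edgeR (version 4.0.16, TMM, filterByExpr, quasi-likelihood) was run on 12081 genes of the 4 gain of function counts, and DESeq2 (version 1.42.0) served as an alternative. The SE of an edgeR estimate is its size divided by the square root of F. P-values were adjusted by Benjamini-Hochberg over all genes, with a threshold of 0.05. Log2(CPM + 1) understates changes of low genes.

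The members, gene lists and named genes were chosen with earlier results of these data known. Named beside the 6 genes are up to 4 genes per list and comparison with the largest absolute change, a few upstream genes and relatives, and the 8 genes most like Isg15. The replicate numbers pair the libraries: log2 ratios of replicate 2 to replicate 1 correlated between conditions with r of 0.686 to 0.754 over 11794 genes, and the labels tie the number to aligner and RNA. The fit with this block is therefore given beside results of the 6 genes whose call it changes, and for the gene lists where it moves a count by over 1.5 times. The study calls the replicates biological, but the labels name no animals, so p-values cover the spread between these libraries. Other alternatives were the filter, pseudocount, scaling, tool, samples in the fit, a fold threshold and each library left out. The scripts were tested on simulated data. Gene names turned into dates (27) were matched by row. Values of some list genes are not reported here.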

Additional observations from a re-analysis of the deposited data

Results flagged for a closer look

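The RANKL responses of 5 genes differed between Mir182ΔM/ΔM and WT cells by the test of the interaction itself. The response in Mir182ΔM/ΔM minus that in WT was 2.87 for Isg15, 0.99 for Uba7, 1.37 for Herc6, 0.77 for Trim25 and 1.71 for Usp18 on the log2 scale (limma, adjusted p = 5.44e-04, 0.0489, 3.77e-04, 0.00210 and 0.00157). Each rests on the WT RANKL libraries, whose Lyz2 and Ifi202b levels set them apart. No group had enough libraries for a check of single libraries against the rest of their group.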

How the results depend on the processing

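Of 618 refits of single genes over 31 settings, 561 kept direction and side of the threshold, 29 lost a call, 21 gained one and 7 turned direction, all 7 in values that had not passed the test. Those 7 came from leaving out 1 library: Uba7 between the basal genotypes was -0.0713 without WT basal replicate 1 and -0.0440 without Mir182ΔM/ΔM basal replicate 2 (range -0.0713 to 0.390), Herc6 with RANKL in WT 0.00145 without WT basal replicate 1 (range -0.211 to 0.00145), and, in Mir182mTg, Uba7 0.141 and 0.189 without Mir182mTg replicate 1 or Control replicate 2 (range -0.242 to 0.189) and Trim25 -0.00181 and -0.00553 without Control replicate 1 or Mir182mTg replicate 2 (range -0.00553 to 0.128). With 1 library left out, the number of the 6 genes called was 1 to 4 between the basal genotypes (main 4), 1 to 2 with RANKL in WT (main 2), 5 to 6 with RANKL in Mir182ΔM/ΔM (main 6), 4 to 5 for the difference of the responses (main 5), 6 between the genotypes after RANKL and 0 in Mir182mTg. A condition left with 1 library was assumed to vary like the others.

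With RANKL in WT the count was 4 in DESeq2, 6 with the replicate block, 5 with that block in edgeR and 1 with a fold threshold of 1.5. It was 1 between the basal genotypes with those 4 libraries alone, and 4 in Mir182mTg with the replicate block. Among the 6 genes, that block changed no call beyond those given in the report. The cause of these shifts was not tested. Over all genes the block moved the calls higher from 1668 to 2740 between the genotypes after RANKL, from 317 to 2170 at baseline and from 870 to 1888 for the difference of the responses, and the calls lower in Mir182mTg from 19 to 984. On the whole reads recovered from CPM, edgeR without the block called 2481 genes higher between the genotypes after RANKL, 273 at baseline, 3536 higher and 3679 lower with RANKL in WT, 3439 higher in Mir182ΔM/ΔM and 1130 higher for the difference of the responses. In edgeR with the block, the first, the second and the last of these were 4225, 1916 and 3117, and 4909 genes were lower with RANKL in WT (main 2571). A fold threshold of 1.5 left 841, 148, 2925 (main 4741), 1609 and 2033 (main 3555) of the calls after RANKL, at baseline, higher and lower in WT and higher in Mir182ΔM/ΔM. Baseline calls were 71 in those 4 libraries alone and 69 to 212 with 1 library left out. In Mir182mTg 71 were lower without a filter, 8 with 1 CPM in every library, 67 in DESeq2 and 24 to 81 with 1 library left out. Of the 8 genes most like Isg15, 3 stayed by rank correlation. At 0 to 5 reads, Ifnb1 was too low for a fold.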
